A study of Homo sapiens with 10 samples.

Results

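The change from stem cells to embryoid bodies at day 4 of a neural differentiation was described over 13333 genes of 42335 in the deposited table, 31.5% of it. A gene was included when its expression reached 1 FPKM (fragment counts scaled by transcript length and library total) in at least 2 of 4 libraries. Those libraries came from H9, an established human embryonic stem cell line, by bulk RNA sequencing. The groups, with 1 library each, were V1PAKI at d4, Ctrl at d4, V1PAKI at d0 and Ctrl at d0. V1PAKI cells carry the genotype labelled SOX1-OT V1 PAKI, an abbreviation the labels do not spell out, and Ctrl cells are wild type. Whether V1PAKI is a single clone is not stated in the labels. The other 6 libraries of the series, both lines at d10, d16D and d16V, entered only the estimate of spread and the values by stage, and the letters D and V are not spelled out in the labels. For d4, stem cell colonies were lifted with dispase and kept floating as embryoid bodies in stem cell medium from which FGF-2 had been left out, and a neural medium with N2 and heparin was given from day 4. The series title concerns the transcript SOX1-OT V1, HDAC10 and SOX1. Below, a pair of values gives V1PAKI and then Ctrl.

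An embryoid body is a floating aggregate of pluripotent cells that starts to differentiate once the signals that hold self-renewal are removed. FGF-2 holds human stem cells in self-renewal through the MAP kinase cascade, and the cascade switches on its own brakes, among them the DUSP phosphatases, the Sprouty proteins and the ETV factors. Cells that leave pluripotency along the neural route first switch on anterior neural plate genes, while ligands and inhibitors of the NODAL, BMP and WNT families set which germ layer a cell enters. Lipid synthesis is run by the SREBP factors, which are released from the endoplasmic reticulum when sterols are low and which switch on the genes of cholesterol and fatty acid synthesis.

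The d4 libraries carry the label of neural progenitors, which the values of SOX1, PAX6 and POU5F1 did not match. SOX1, the defining neural progenitor factor, stood at 0.0613 and 0.0605 FPKM at d4, against 0.0485 and 0 FPKM at d0. PAX6, an early neuroectoderm factor, stood at 0.0743 and 0.378 FPKM at d4 and was listed at 0 in both libraries at d0. POU5F1, the central pluripotency factor, was at 328 and 268 FPKM at d4, against 385 and 326 FPKM at d0. The d4 samples are therefore called day 4 embryoid bodies here. The depth of each library is unknown, since FPKM values hold no read totals, so no counting interval could be given. FPKM summed to between 229619 and 256270 in the 4 libraries.

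The difference between d4 and d0 was taken within each line on log2(FPKM + 1), a scale that understates the change of low genes. It reached at least 1 in 893 genes in V1PAKI and in 966 genes in Ctrl. A change of that size and the same direction in both lines was found for 273 genes higher at d4 (2.05% of the 13333) and for 159 lower (1.19%), while 13 genes moved by at least 1 in opposite directions. At any size, 4441 genes were higher at d4 in both lines (33.3%) and 4787 were lower (35.9%). Across the 13333 genes the changes of the lines had a Pearson r of 0.658, given as a description, since genes are not independent and each line has its own d0 and d4 library. The median change was −0.09 in V1PAKI and 0.08 in Ctrl.

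A limma fit of all 10 libraries with stage and line as terms, adjusted over the 15779 genes that reached 1 FPKM in at least 2 of them, called 80 genes that rose at d4 (0.6% of the 13333) and 49 that fell (0.368%), 129 in all (0.968%). The words rose and fell are kept for these calls at an adjusted p under 0.05. Every one of the 129 had the same direction in both lines and d4 libraries that did not overlap the d0 libraries. The same lack of overlap was seen for 26.9% of the 13333 genes on the higher side and 29.3% on the lower side. Each line and stage had 1 library, with no label that tells cultures apart. The spread behind the p-values is thus how the difference between the lines varied from stage to stage, over all 10 libraries. It is not the variation among repeated cultures. Leaving out 1 of the 4 libraries left 0 to 2 calls, DUSP6 without Ctrl d4 and DUSP6 and LHX5 without V1PAKI d4, and with the trend over GC content and transcript length removed the split was 115 genes that rose and 115 that fell. The same model on the 4 d0 and d4 libraries alone called 0 genes (3006 at an unadjusted p under 0.05), and without the line as a block the limma fit of 10 libraries called 137 that rose and 100 that fell. Of the 57 called genes whose values are given below, 27 were called by limma under each of 7 further settings (TPM, median-of-ratios scaling, removal of the GC and length trend, a pseudocount of 0.1, a filter at 5 FPKM, no intensity trend and no line as a block). They were DUSP6, FGFBP3, SCD, INSIG1, P2RY1, VSNL1, SLC1A3, USP3, THY1 and CCND2 among those that fell, and LHX5, LHX5-AS1, AC012354.3, SOX21, IRX2, C5orf38, KLF4, CYP26A1, PTCH1, ID4, PLIN2, DLK1, JUN, ADRA2A, RPRM, PRODH and ECEL1P1 among those that rose. The other 30 lost the call, or were left out by the stricter filter, under at least 1 of these settings, most often with TPM (22 genes). The 7 settings do not include the fits on fewer libraries or the fit with no filter. Of the 129 calls, 4 were also called with no filter, and 1 in the fit on the 6 d0, d4 and d10 libraries. A gene below 1 FPKM in both d0 libraries entered only through its d4 values and had to be higher there, which was so for 345 of the 13333 genes, while 377 entered only through their d0 values. Counts and medians over expressed list genes carry this condition, so for the lists it touches most the count over all list genes in the table is given as well. In bulk RNA, fewer cells of a type and less RNA per cell cannot be told apart.

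**Figure D1:**
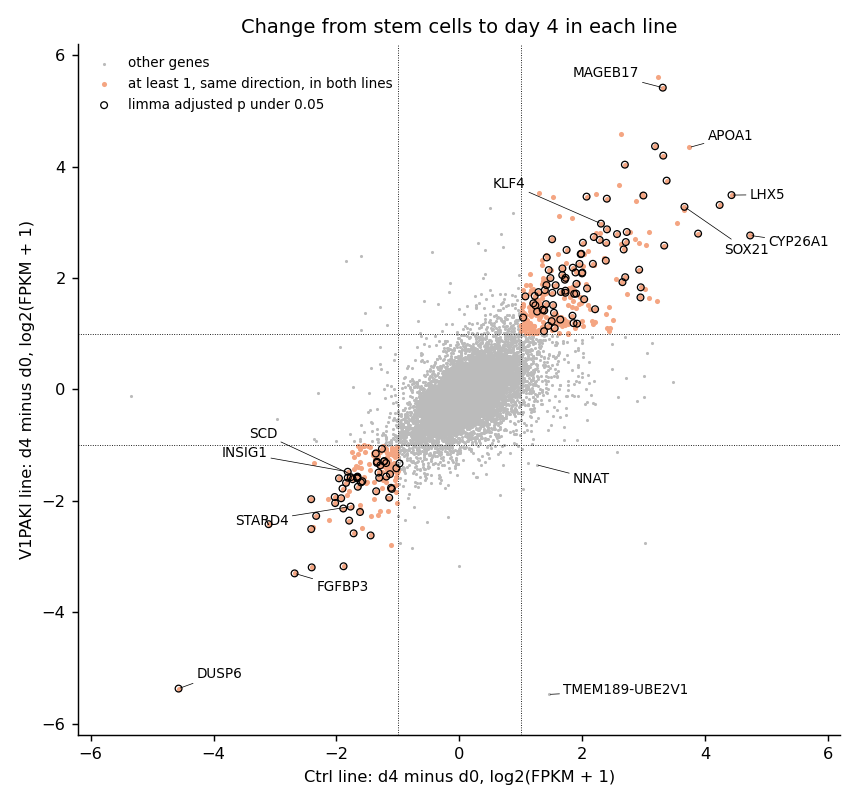
Change from d0 to d4 on log2(FPKM + 1) in Ctrl (horizontal) and V1PAKI (vertical) for 13333 genes, with dotted lines at 1 and −1. The 273 genes at upper right and 159 at lower left moved by at least 1 in both lines, and the 129 limma calls, ringed, lie within or beside these corners.

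The feedback genes of FGF and MAP kinase signalling were mostly lower at d4. Of 21 genes of this list above the expression minimum, 3 fell (0.368% of all genes) and none rose. By at least 1 in both lines, 6 were lower (1.19% of all genes) and 1 was higher. At any size, 13 were lower in both lines (35.9% of all genes were). The median change was −0.50, beside a median near 0 over all 13333 genes. DUSP6, the phosphatase that switches off ERK, on chromosome 12 (chr12:89347232-89353271, GRCh38), had 1.05 and 1.57 FPKM at d4, against 83.9 and 60.1 FPKM at d0 (log2 change −4.97, SE 0.30, adjusted p = 0.00349). Its level was 79.7-fold lower at d4 in V1PAKI and 38.2-fold lower in Ctrl, and it had the lowest adjusted p of all genes tested. SPRY4, a Sprouty inhibitor of receptor signalling, had 9.86 and 7.41 FPKM at d4, against 41.1 and 30.9 FPKM at d0 (log2 change −1.94, SE 0.30, adjusted p = 0.0386), a fall of 4.17-fold in each line. ETV5, an ETS family factor downstream of FGF, had 3.27 and 2.23 FPKM at d4, against 11.7 and 9.98 FPKM at d0 (log2 change −1.67, SE 0.27, adjusted p = 0.0438). These 3 genes had d4 values below both d0 values by a wide margin. DUSP6 was called under all 7 further settings, whereas SPRY4 was not called with TPM (adjusted p = 0.0555) or a pseudocount of 0.1 (adjusted p = 0.0757), and ETV5 was not called with TPM (adjusted p = 0.0551). IL17RD, another inhibitor of FGF receptors, was lower without passing, at 5.15 and 5.95 FPKM at d4, against 17.9 and 15.5 FPKM at d0 (log2 change −1.43, SE 0.27, adjusted p = 0.0650), as was ETV4, at 20.1 and 12.9 FPKM at d4, against 57.7 and 28.6 FPKM at d0 (log2 change −1.28, SE 0.36, adjusted p = 0.205). Other feedback genes went the other way: CCND1, a cyclin of the G1 phase, was higher in both lines at 46.1 and 50.2 FPKM at d4, against 21.5 and 23.9 FPKM at d0 (log2 change 1.05, SE 0.23, adjusted p = 0.108). SPRED2 stood at 8.73 and 5.96 FPKM at d4, against 4.83 and 3.88 FPKM at d0. Without the GC and length trend the median of this list was −0.36.

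Of 18 FGF ligands, receptors and binding proteins in the table, 10 were higher and 5 lower in both lines at any level. Among the 13 that were expressed, 2 of them only through their d4 values, 2 rose (0.6% of all genes) and 1 fell (0.368%). Their median change was 0.27, or 0.09 with no expression minimum. FGF4, a ligand made by pluripotent cells, had 8.64 and 7.87 FPKM at d4, against 0.316 and 0.675 FPKM at d0 (log2 change 2.64, SE 0.40, adjusted p = 0.0384). FGF8, a ligand of early organising centres including the anterior edge of the neural plate, had 1.66 and 2.80 FPKM at d4, against 0.168 and 0.0477 FPKM at d0 (log2 change 1.52, SE 0.22, adjusted p = 0.0371). FGFBP3, a secreted protein that binds FGFs, had 6.89 and 7.91 FPKM at d4, against 76.8 and 56.1 FPKM at d0 (log2 change −2.99, SE 0.42, adjusted p = 0.0370). FGF4 and FGF8 were below 1 FPKM in every d0 library and so entered only through their d4 values, which set their direction. FGFBP3 was among the genes with the largest shared falls. FGFR3, an FGF receptor, was higher without passing, at 27.1 and 23.2 FPKM at d4, against 4.98 and 4.29 FPKM at d0 (log2 change 2.21, SE 0.44, adjusted p = 0.0777). The ligand FGF2 itself was at 21.0 and 23.8 FPKM at d4, against 16.1 and 21.0 FPKM at d0. With the trend over GC content and length removed, FGF8 no longer passed (adjusted p = 0.127), and FGF4 lost its call with TPM (adjusted p = 0.112).

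**Figure D2:**
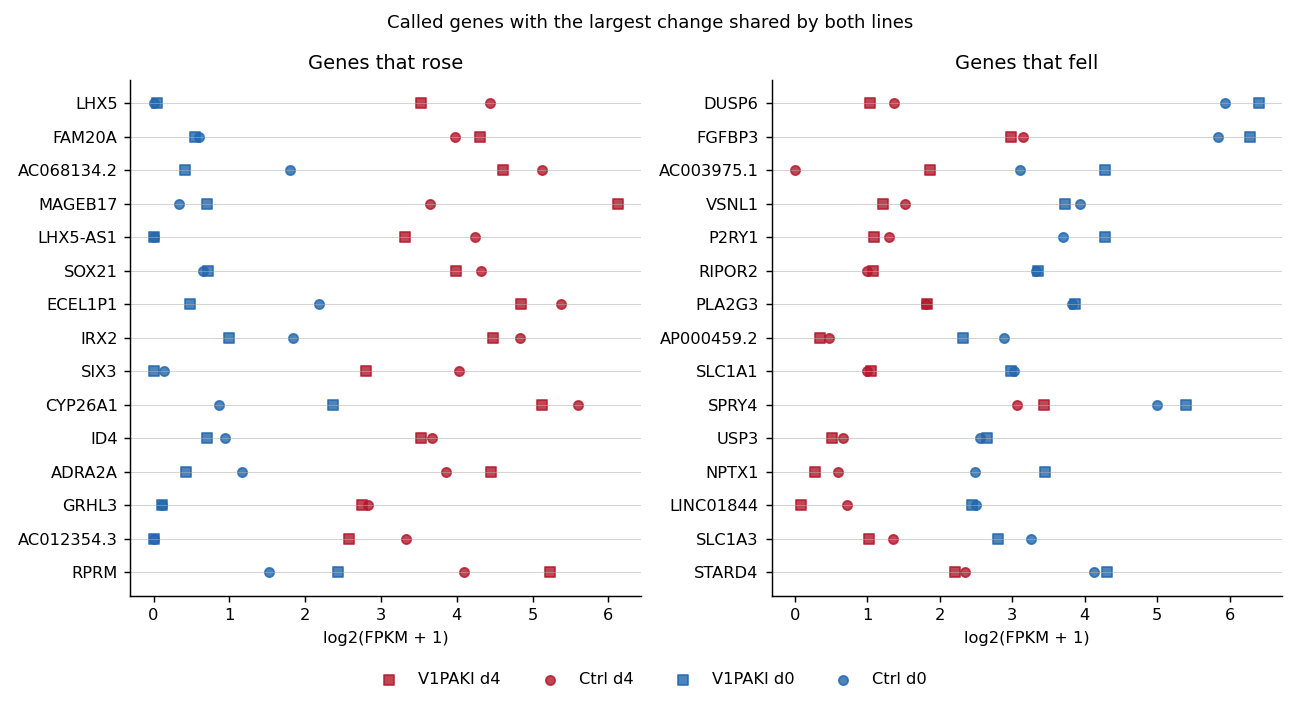
Values on log2(FPKM + 1) in the d4 libraries (red) and d0 libraries (blue) of V1PAKI (squares) and Ctrl (circles) for the 15 genes that rose and the 15 that fell with the largest change shared by both lines. For each gene the red symbols do not overlap the blue ones, and DUSP6 has the widest gap among those that fell.

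Pluripotency genes stayed high at d4, and 20 of 28 were higher in both lines than at d0 (33.3% of all genes were), with a median change of 0.44. In this list 1 gene rose (0.6% of all genes) and none fell (0.368%). By at least 1 in both lines, 5 were higher (2.05% of all genes) and 1 was lower (1.19%). KLF4, a reprogramming factor linked to the naive state, had 8.77 and 5.397 FPKM at d4, against 0.242 and 0.293 FPKM at d0 (log2 change 2.64, SE 0.24, adjusted p = 0.0139). It was the 1 gene of the list that entered only through its d4 values, which set its direction. UTF1, a chromatin factor of pluripotent cells, had 51.5 and 31.0 FPKM at d4, against 6.44 and 2.76 FPKM at d0 and did not pass (log2 change 2.96, SE 0.55, adjusted p = 0.0657). SOX2, a pluripotency factor that neural progenitors also use, was at 120.1 and 128 FPKM at d4, against 58.9 and 40.9 FPKM at d0 (log2 change 1.32, SE 0.28, adjusted p = 0.0956). PRDM14, a repressor of lineage genes, was at 69.9 and 64.8 FPKM at d4, against 14.04 and 25.0 FPKM at d0 (log2 change 1.79, SE 0.41, adjusted p = 0.115). All 3 were higher at d4 in both lines with no overlap. POLR3G, an RNA polymerase III subunit of stem cells, was the member lower by at least 1, at 26.6 and 28.9 FPKM at d4, against 67.8 and 75.6 FPKM at d0 (log2 change −1.34, SE 0.36, adjusted p = 0.181). NANOG, a core factor, was lower in both lines at 14.8 and 10.8 FPKM at d4, against 16.2 and 16.4 FPKM at d0. DPPA3, a maternal and germ cell factor, was 1 of 4 expressed naive pluripotency genes and had 7.497 and 6.30 FPKM at d4, against 0.924 and 1.66 FPKM at d0 (log2 change 1.80, SE 0.22, adjusted p = 0.0264). KLF17, a human naive marker, was listed at 0 in all 4 libraries.

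BMP pathway genes were mostly higher at d4, and the NODAL and activin list moved both ways. Of 22 BMP genes in the table, 17 were higher and 2 lower in both lines at any level. Among the 13 that were expressed, 4 of them only through their d4 values, 11 were higher in both lines (33.3% of all genes were). Of these, 7 were higher by at least 1 (2.05% of all genes) and 2 rose (0.6%). The median change was 1.37, or 0.50 with no expression minimum. BMP7, a ligand, had 7.38 and 7.43 FPKM at d4, against 1.94 and 2.57 FPKM at d0 (log2 change 1.37, SE 0.22, adjusted p = 0.0454), or an adjusted p of 0.0513 without the GC and length trend. ID4, an inhibitor of bHLH factors that BMP signals induce, had 10.5 and 11.8 FPKM at d4, against 0.627 and 0.930 FPKM at d0 (log2 change 2.78, SE 0.34, adjusted p = 0.0264). Its relative ID1 had 156 and 142 FPKM at d4, against 13.3 and 48.5 FPKM at d0 and did not pass (log2 change 2.49, SE 0.61, adjusted p = 0.143), with d0 values that differed between the lines. BMP4 stood at 7.47 and 8.73 FPKM at d4, against 0.380 and 0.570 FPKM at d0 (log2 change 2.62, SE 0.89, adjusted p = 0.300) and FST, a secreted antagonist, at 14.3 and 16.4 FPKM at d4, against 1.77 and 3.45 FPKM at d0 (log2 change 2.22, SE 0.44, adjusted p = 0.0783). In the NODAL and activin list 8 of 18 genes were higher in both lines and 5 were lower (33.3% and 35.9% of all genes). The median change of that list was 0.11, and 0 were called by limma. CER1, a secreted inhibitor of NODAL, BMP and WNT, had 9.76 and 14.8 FPKM at d4, against 0.363 and 0.359 FPKM at d0 and missed the threshold (log2 change 3.26, SE 0.55, adjusted p = 0.0501). LEFTY1, an inhibitor that NODAL induces, had 16.5 and 34.8 FPKM at d4, against 4.00 and 3.43 FPKM at d0 (log2 change 2.41, SE 0.47, adjusted p = 0.0712), and NODAL itself had 7.86 and 8.31 FPKM at d4, against 1.64 and 1.62 FPKM at d0 (log2 change 1.79, SE 0.58, adjusted p = 0.282). For each of these 3 genes both d4 values lay above both d0 values.

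WNT pathway genes had no calls among 14, 3 of them expressed only through their d4 values. Of the 14, 10 were higher and 4 lower in both lines (33.3% and 35.9% of all genes). AXIN2, a feedback target of WNT, was at 12.4 and 12.3 FPKM at d4, against 3.88 and 2.54 FPKM at d0 (log2 change 1.68, SE 0.30, adjusted p = 0.0593), and the receptor FZD8 was at 13.9 and 13.6 FPKM at d4, against 3.02 and 2.47 FPKM at d0 (log2 change 1.98, SE 0.45, adjusted p = 0.115). Of the secreted WNT inhibitors, FRZB was higher at 12.7 and 13.95 FPKM at d4, against 3.89 and 1.76 FPKM at d0 (log2 change 1.96, SE 0.37, adjusted p = 0.0659) and SFRP2 was lower at 78.0 and 77.4 FPKM at d4, against 163 and 167 FPKM at d0 (log2 change −1.08, SE 0.21, adjusted p = 0.0685). The inhibitors therefore lay on both sides. In the Notch list of 13, 7 were higher and 4 lower in both lines (33.3% and 35.9% of all genes) with no call.

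Of 19 anterior neural plate genes in the table, 15 were higher and 1 was lower in both lines at any level. Among the 11 that were expressed, 3 of them only through their d4 values, 9 were higher in both lines (33.3% of all genes were). Of these, 6 were higher by at least 1 (2.05% of all genes) and 2 rose (0.6%). The median change was 1.54, or 0.41 with no expression minimum. LHX5, a homeobox factor of the early forebrain, on chromosome 12 (chr12:113462034-113472280, GRCh38, minus strand), had 10.5 and 20.6 FPKM at d4, against 0.0295 and 0 FPKM at d0 (log2 change 3.96, SE 0.35, adjusted p = 0.0139). LHX5-AS1, an antisense gene that overlaps the start of LHX5, had 8.92 and 17.9 FPKM at d4, against 0 and 0 FPKM at d0 (log2 change 3.77, SE 0.45, adjusted p = 0.0240). How the counting used strand is not stated, and reads of this pair cannot be told apart. SIX3, a homeobox factor of forebrain and eye field, had 5.95 and 15.3 FPKM at d4, against 0 and 0.101 FPKM at d0 (log2 change 3.34, SE 0.53, adjusted p = 0.0438). OTX2, a head factor present in both states, was at 26.5 and 40.0 FPKM at d4, against 10.7 and 8.16 FPKM at d0 (log2 change 1.70, SE 0.40, adjusted p = 0.130), and RAX, an eye field factor, was at 1.49 and 2.79 FPKM at d4, against 0.104 and 0.0190 FPKM at d0 (log2 change 1.54, SE 0.30, adjusted p = 0.0723). LHX5 and SIX3 were lower in V1PAKI than in Ctrl at d4, yet above every d0 value. SIX3 missed the threshold once the GC and length trend was removed (adjusted p = 0.0524). ZIC2 went against the list, at 27.1 and 50.6 FPKM at d4, against 66.9 and 52.5 FPKM at d0 (log2 change −0.66, SE 0.32, adjusted p = 0.473).

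Other neural genes were mixed. Of 10 neural progenitor genes 5 were higher and 5 lower in both lines (33.3% and 35.9% of all genes), and 1 rose (0.6%). Of the 10, 2 were expressed only through their d4 values and 1 only through its d0 values. The gene that rose was SOX21, a SOX factor of neural progenitors, with 14.9 and 19.04 FPKM at d4, against 0.645 and 0.579 FPKM at d0 (log2 change 3.47, SE 0.40, adjusted p = 0.0240). SOX21 entered only through its d4 values, which set its direction. SOX3 was lower in both lines, at 6.17 and 4.82 FPKM at d4, against 12.7 and 10.1 FPKM at d0, and so was POU3F1, a POU factor of early neural cells, at 6.55 and 8.76 FPKM at d4, against 18.1 and 13.6 FPKM at d0. The list of midbrain, hindbrain and spinal cord genes had 3 expressed members of 16, 2 of them only through their d4 values, and all 3 were higher in both lines with a median change of 1.80, or 0.22 with no expression minimum, and 1 that rose. IRX2, a homeobox factor of the posterior neural plate and other tissues, had 21.3 and 27.5 FPKM at d4, against 1.00 and 2.57 FPKM at d0 (log2 change 3.24, SE 0.30, adjusted p = 0.0139), and C5orf38, whose gene starts 469 bases from it on the opposite strand, had 5.22 and 6.37 FPKM at d4, against 0.253 and 0.410 FPKM at d0 (log2 change 2.35, SE 0.23, adjusted p = 0.0139), a gene chosen after its values were seen. IRX1 stood at 2.89 and 3.60 FPKM at d4, against 0.368 and 0.0724 FPKM at d0 (log2 change 1.80, SE 0.38, adjusted p = 0.0973). Of 8 neuron genes 7 were lower in both lines (35.9% of all genes were) with no call. Of the 8, 2 were expressed only through their d0 values and had to be lower. Of 18 neuron genes in the table, 2 were higher and 10 lower in both lines at any level. TUBB3, a neuronal tubulin, was lower at 13.2 and 20.3 FPKM at d4, against 32.8 and 28.4 FPKM at d0. SYT1, a synaptic vesicle protein, was lower at 2.83 and 2.61 FPKM at d4, against 8.33 and 7.42 FPKM at d0. These neuron genes were low to moderate at both stages.

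Of 11 retinoic acid pathway genes, 5 were higher and 2 lower in both lines (33.3% and 35.9% of all genes), and 1 rose. That gene was CYP26A1, the enzyme that breaks down retinoic acid. It had 33.9 and 47.5 FPKM at d4, against 4.15 and 0.822 FPKM at d0 (log2 change 3.75, SE 0.45, adjusted p = 0.0240), an 8.18-fold rise in V1PAKI and a 57.8-fold rise in Ctrl, where the d0 value was lower. DHRS3, which turns retinaldehyde back into retinol, was also higher at 7.82 and 6.94 FPKM at d4, against 1.67 and 1.99 FPKM at d0 (log2 change 1.56, SE 0.33, adjusted p = 0.0965), and the receptor RXRA was at 4.47 and 4.81 FPKM at d4, against 3.62 and 3.19 FPKM at d0. The 250 bases before 1 of the CYP26A1 starts in RefSeq hold a retinoic acid receptor element of the DR5 type, and they are shown because this element was found in no other promoter of a gene that rose. They lie at chr10:93073643-93073892 on GRCh38.p14, plus strand, and the capitals mark the element, whose first base is 90 bases before the start.
CYP26A1: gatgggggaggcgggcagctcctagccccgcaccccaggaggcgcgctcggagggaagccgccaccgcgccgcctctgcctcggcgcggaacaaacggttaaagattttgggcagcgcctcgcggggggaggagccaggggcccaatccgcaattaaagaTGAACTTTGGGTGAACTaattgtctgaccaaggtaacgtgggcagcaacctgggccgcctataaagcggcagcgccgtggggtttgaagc
The DR5 element, searched on both strands as a direct repeat with a spacer of 5 bases over the 250 bases before and 50 after each start, was in 31 of 35116 promoters (0.0883%), and in 1 of the 40 genes that rose and have a promoter in that table. A match describes letters only. AL358613.3, a gene that overlaps CYP26A1 on the same strand, was called as well, at 1.85 and 2.61 FPKM at d4, against 0 and 0.251 FPKM at d0 (log2 change 1.52, SE 0.25, adjusted p = 0.0462), and the counting could split reads between them.

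Of 9 expressed hedgehog pathway genes, 6 were higher and 2 lower in both lines (33.3% and 35.9% of all genes), and PTCH1 rose. PTCH1, the hedgehog receptor and itself a target of the pathway, had 8.85 and 8.70 FPKM at d4, against 1.33 and 1.43 FPKM at d0 (log2 change 2.04, SE 0.22, adjusted p = 0.0205), with the lines close to each other at both stages. GLI1, a transcription factor and target, was at 6.14 and 6.88 FPKM at d4, against 1.93 and 1.81 FPKM at d0 (log2 change 1.38, SE 0.36, adjusted p = 0.170), and the ligand SHH was at 0 and 0.00967 FPKM at d4 and listed at 0 in both libraries at d0. No hedgehog protein or agonist is described before day 10 in the protocol. The letters TGGGTGGTC, the core of the GLI site, were found on either strand in 83 of 35116 promoters (0.236%) and, of the 40 genes that rose with a promoter, in PTCH1 alone. The 250 bases before that start, at chr9:95509267-95509516 on GRCh38.p14, minus strand, are shown with the GLI core in capitals, 172 bases before the start.
PTCH1: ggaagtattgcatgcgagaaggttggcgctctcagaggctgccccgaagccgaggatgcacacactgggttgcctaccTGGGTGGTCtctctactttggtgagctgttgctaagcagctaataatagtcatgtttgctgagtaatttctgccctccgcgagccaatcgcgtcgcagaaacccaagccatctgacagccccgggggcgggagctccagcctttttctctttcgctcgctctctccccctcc
The ETS core CCGGAAGT was in 4.14% of promoters, in 10.3% of the 9518 expressed genes with a promoter, in 0 of the 40 that rose and in 0 of the 25 that fell. The TCF/LEF letters CTTTGAT were in 2.62% of promoters, in 1.96% of those 9518 genes, in 0 of the 40 and in 0 of the 25.

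Of 19 non-neural ectoderm and epithelium genes in the table, 18 were higher and 0 lower in both lines at any level. Of 15 that were expressed, 4 of them only through their d4 values, 14 were higher in both lines (33.3% of all genes were). The median was 0.58, and 3 rose (0.6% of all genes). TFAP2C, a factor of surface ectoderm, trophoblast and naive cells, had 10.5 and 10.3 FPKM at d4, against 0.728 and 1.47 FPKM at d0 (log2 change 2.46, SE 0.38, adjusted p = 0.0384). GRHL3, a grainyhead factor of surface ectoderm, had 5.75 and 6.08 FPKM at d4, against 0.0787 and 0.0813 FPKM at d0 (log2 change 2.68, SE 0.45, adjusted p = 0.0489). DLX5, a factor of the neural plate border and ectoderm, had 3.04 and 5.50 FPKM at d4, against 0 and 0 FPKM at d0 (log2 change 2.36, SE 0.39, adjusted p = 0.0489). These 3 were at most 1.47 FPKM at d0, and none of them kept its call with median-of-ratios scaling (adjusted p = 0.0503 for TFAP2C, 0.0562 for GRHL3 and 0.0543 for DLX5). TFAP2C and GRHL3 also lost it with TPM (adjusted p = 0.0534 and 0.0551), and DLX5 without the line as a block (adjusted p = 0.0923). CDH1, the epithelial cadherin, stood at 85.7 and 91.8 FPKM at d4, against 37.1 and 48.3 FPKM at d0 (log2 change 1.05, SE 0.83, adjusted p = 0.690).

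Of 17 endoderm genes in the table, 16 were higher and 0 lower in both lines at any level, and none passed. The 10 that were expressed included 9 that entered only through their d4 values, so that their higher level at d4 is largely set by the minimum, and 7 of the 10 were higher by at least 1 in both lines. With no expression minimum the median change of the endoderm list was 0.49. APOA1, a lipoprotein component of liver and yolk sac, had the largest mean change among the 10, at 20.4 and 13.0 FPKM at d4, against 0.0543 and 0.0439 FPKM at d0 (log2 change 4.05, SE 1.41, adjusted p = 0.318). AFP, made by the same tissues, was at 8.53 and 4.53 FPKM at d4, against 0.357 and 0.129 FPKM at d0 (log2 change 2.55, SE 1.36, adjusted p = 0.523). HHEX, a factor of early endoderm, was at 2.09 and 3.27 FPKM at d4, against 0.319 and 0.461 FPKM at d0 (log2 change 1.39, SE 0.29, adjusted p = 0.0910). SOX17, which defines the lineage, stood at 0.568 and 0.250 FPKM at d4, against 0 and 0 FPKM at d0. The endoderm list summed to 73.9 and 56.9 FPKM at d4, against 11.9 and 9.49 FPKM at d0, with 7 genes of the list below 1 FPKM in all 4 libraries. Amnion and trophoblast genes summed to 19.2 and 20.5 FPKM at d4, against 1.74 and 2.16 FPKM at d0, and 10 of the 14 in the table were below 1 FPKM in all 4 libraries. Of the 14, 10 were higher and 1 lower in both lines at any level. Of the 4 expressed, 3 entered only through their d4 values and were higher by at least 1, among them HAND1 at 5.36 and 6.61 FPKM at d4, against 0.0318 and 0 FPKM at d0 (log2 change 2.78, SE 1.45, adjusted p = 0.515). TBXT, the factor that defines primitive streak and mesoderm, was at 0.757 and 0.593 FPKM at d4, against 0.110 and 0 FPKM at d0. Several standard errors in the endoderm and amnion lists were large, as for HAND1 with 1.45. They are taken over all 10 libraries, so a large error need not mean that the lines differed between d0 and d4. AFP had a log2 change of 2.81 in V1PAKI and 2.29 in Ctrl. Later it stood at 1242 and 226 FPKM at d16D and at 4.88 and 132 FPKM at d16V. The part of endoderm or amnion cells in the other changes was not tested.

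Mesenchymal genes moved both ways. COL3A1, a fibrillar collagen, had 9.48 and 6.32 FPKM at d4 and was listed at 0 in both libraries at d0 (log2 change 3.13, SE 1.56, adjusted p = 0.494). LUM, a collagen-binding proteoglycan, had 4.10 and 4.13 FPKM at d4 and was likewise listed at 0. COL1A2 was lower in both lines, at 5.90 and 5.90 FPKM at d4, against 11.0 and 12.1 FPKM at d0, and DCN was below 0.1 FPKM in all 4 libraries. THY1, a surface protein of fibroblasts that stem cells carry too, had 19.4 and 18.0 FPKM at d4, against 67.5 and 58.8 FPKM at d0 and was the 1 member that fell (log2 change −1.70, SE 0.22, adjusted p = 0.0302). The list summed to 78.4 and 67.9 FPKM at d4, against 104 and 88.1 FPKM at d0. Of endothelium and blood genes only TEK passed the expression minimum, at 0.669 and 1.54 FPKM at d4, against 1.26 and 1.61 FPKM at d0, and PTPRC was listed at 0 in all 4 libraries.

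**Figure D3:**
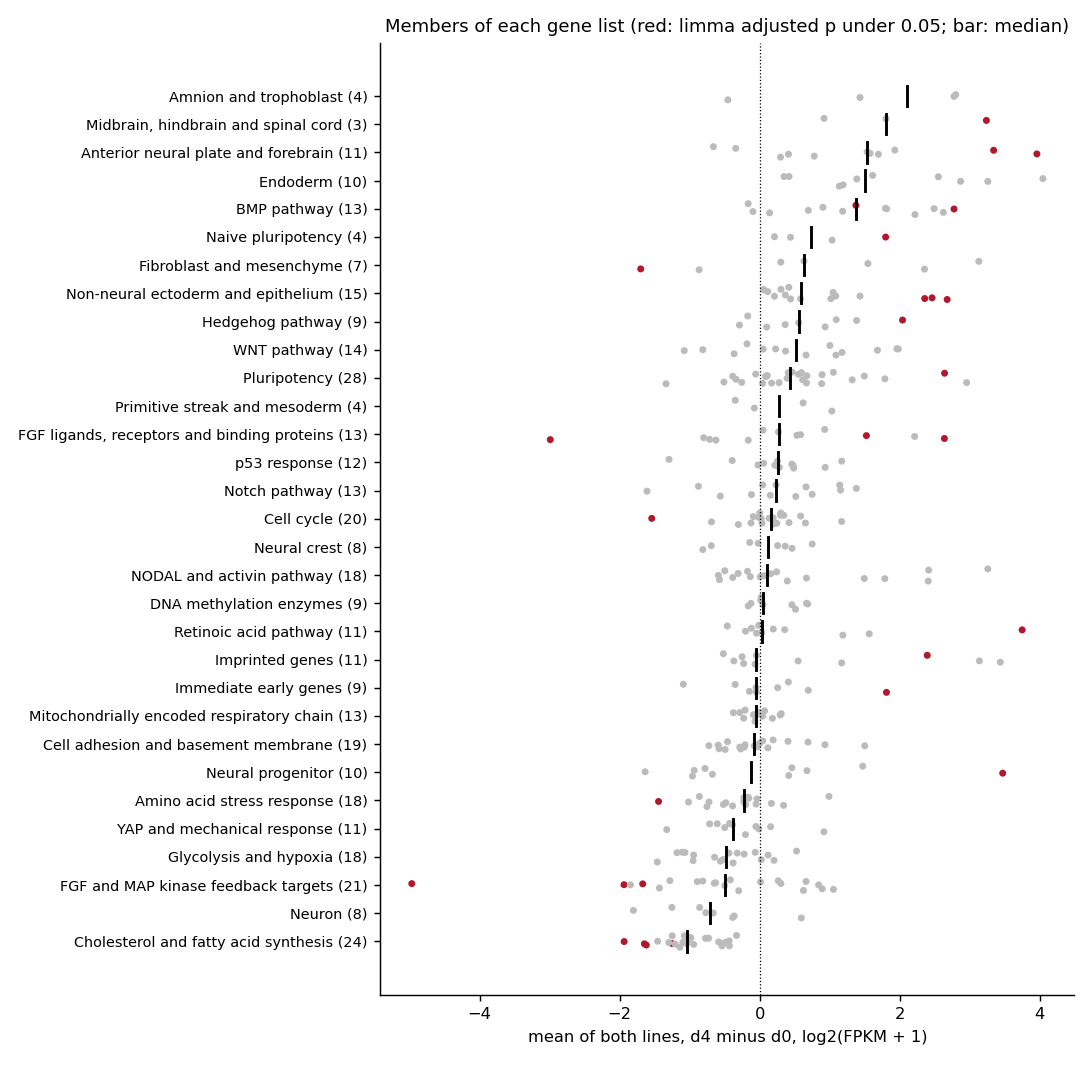
Change from d0 to d4, mean of both lines on log2(FPKM + 1), for each expressed member of the gene lists, with the number of members in brackets, red for limma calls and a bar for the list's median. Cholesterol and fatty acid synthesis has the lowest median, −1.03, with all 24 points left of 0.

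Genes of cholesterol and fatty acid synthesis were lower at d4 as a group. All 24 were expressed, all 24 were lower in both lines (35.9% of all genes were), 11 by at least 1 (1.19% of all genes), and in 23 of 24 both d4 libraries lay below both d0 libraries (29.3% of all genes). The median change was −1.03, and 4 fell (0.368% of all genes) and 0 rose. Summed over the list, the level was 503 and 490 FPKM at d4, against 1182 and 1147 FPKM at d0. The sum was thus within a narrow range between lines at each stage.

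SCD, which makes monounsaturated fatty acids, had 91.5 and 93.5 FPKM at d4, against 276 and 298 FPKM at d0 (log2 change −1.62, SE 0.23, adjusted p = 0.0371), 3.01-fold lower in V1PAKI and 3.18-fold lower in Ctrl. INSIG1, an endoplasmic reticulum protein that holds SREBP back and is itself an SREBP target, had 7.76 and 6.15 FPKM at d4, against 23.4 and 24.2 FPKM at d0 (log2 change −1.65, SE 0.25, adjusted p = 0.0382). STARD4, a carrier of cholesterol inside the cell, had 3.62 and 4.12 FPKM at d4, against 18.8 and 16.4 FPKM at d0 (log2 change −1.94, SE 0.33, adjusted p = 0.0491). In each of these 3 the lines were close to each other at both stages. HMGCS1, at the entry of the mevalonate route, did not pass, at 20.2 and 20.5 FPKM at d4, against 51.4 and 64.6 FPKM at d0 (log2 change −1.46, SE 0.35, adjusted p = 0.135). FASN, the fatty acid synthase, was at 65.1 and 66.6 FPKM at d4, against 196 and 137 FPKM at d0 (log2 change −1.30, SE 0.26, adjusted p = 0.0811). FADS2, a desaturase of polyunsaturated fatty acids, was at 15.5 and 17.9 FPKM at d4, against 42.6 and 37.1 FPKM at d0 (log2 change −1.21, SE 0.21, adjusted p = 0.0575). With the trend over GC content and length removed, FASN, FADS2 and SREBF1 passed as well, at adjusted p between 0.00943 and 0.0383, whereas STARD4 did not pass with TPM (adjusted p = 0.0607).

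**Figure D4:**
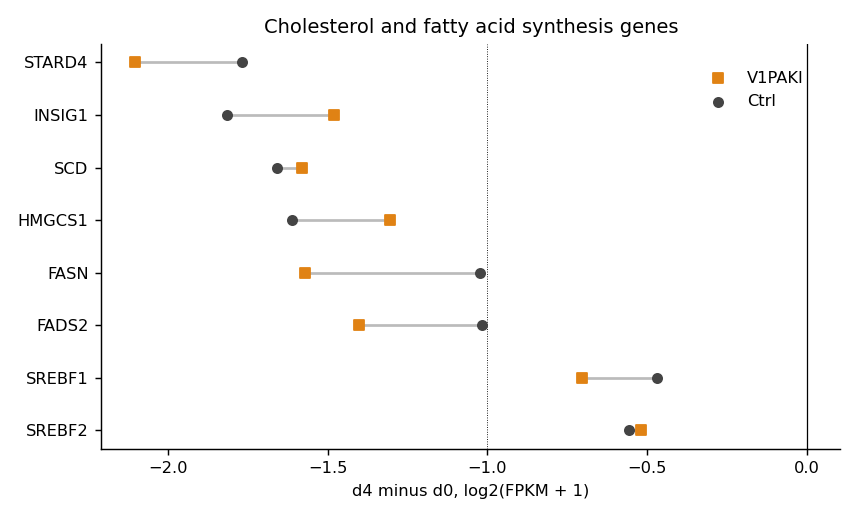
Change from d0 to d4 on log2(FPKM + 1) in V1PAKI (squares) and Ctrl (circles) for the 8 genes of cholesterol and fatty acid synthesis whose values are given, with a dotted line at −1. Every symbol lies left of 0, and STARD4, INSIG1 and SCD have the lowest means of both lines.

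SREBF2, the gene of the SREBP factor for cholesterol synthesis, was lower in both lines without passing, at 31.7 and 32.1 FPKM at d4, against 45.8 and 47.7 FPKM at d0 (log2 change −0.54, SE 0.22, adjusted p = 0.391). SREBF1 was at 5.90 and 5.69 FPKM at d4, against 10.2 and 8.25 FPKM at d0 (log2 change −0.59, SE 0.22, adjusted p = 0.359). The letters TCACCCCAC, from a sterol regulatory element and searched on both strands, were in 151 of 35116 promoters (0.43%) and in 1 of the 17 list members with a promoter, SREBF2. This motif was added after the genes were seen to be lower. The 250 bases before the SREBF2 start, at chr22:41832855-41833104 on GRCh38.p14, plus strand, are shown with the element in capitals, 133 bases before the start, as the 1 promoter of the list that holds it.
SREBF2: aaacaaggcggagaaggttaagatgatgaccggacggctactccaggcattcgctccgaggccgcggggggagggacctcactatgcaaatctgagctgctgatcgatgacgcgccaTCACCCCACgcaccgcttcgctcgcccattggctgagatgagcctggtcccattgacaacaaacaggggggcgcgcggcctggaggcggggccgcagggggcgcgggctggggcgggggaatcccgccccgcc
Further lipid genes were chosen after their values were seen. ACAT2, the thiolase that feeds the mevalonate route, had 27.0 and 27.2 FPKM at d4, against 67.3 and 64.7 FPKM at d0 (log2 change −1.25, SE 0.21, adjusted p = 0.0491). LPL, which releases fatty acids from lipoproteins, had 0.103 and 0.170 FPKM at d4, against 2.34 and 3.54 FPKM at d0 (log2 change −1.78, SE 0.22, adjusted p = 0.0264). VLDLR, a lipoprotein receptor from the amino acid stress list, had 1.83 and 2.95 FPKM at d4, against 7.503 and 8.74 FPKM at d0 (log2 change −1.44, SE 0.22, adjusted p = 0.0384). On the other side, PLIN2, a coat protein of lipid droplets, had 16.4 and 16.4 FPKM at d4, against 4.24 and 5.09 FPKM at d0 (log2 change 1.62, SE 0.24, adjusted p = 0.0371). CPT1A, which admits fatty acids to mitochondria for oxidation, had 5.18 and 4.40 FPKM at d4, against 0.810 and 0.630 FPKM at d0 (log2 change 1.75, SE 0.27, adjusted p = 0.0384). Of these 5, PLIN2 was called under all 7 further settings and LPL under all but the filter at 5 FPKM, which left it out. ACAT2, VLDLR and CPT1A were not called with TPM (adjusted p = 0.0555, 0.0555 and 0.0816) or with a pseudocount of 0.1 (adjusted p = 0.0542, 0.0550 and 0.103).

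The following genes were among those with the largest shared falls. P2RY1, a receptor for ADP, had 1.13 and 1.47 FPKM at d4, against 18.5 and 12.1 FPKM at d0 (log2 change −2.80, SE 0.24, adjusted p = 0.0139). VSNL1, a neuronal calcium sensor, had 1.32 and 1.87 FPKM at d4, against 12.2 and 14.3 FPKM at d0 (log2 change −2.46, SE 0.26, adjusted p = 0.0172). NPTX1, a neuronal pentraxin, had 0.214 and 0.514 FPKM at d4, against 9.97 and 4.58 FPKM at d0 (log2 change −2.53, SE 0.33, adjusted p = 0.0302). The glutamate transporters SLC1A1, at 1.08 and 0.995 FPKM at d4, against 6.93 and 7.13 FPKM at d0 (log2 change −1.98, SE 0.25, adjusted p = 0.0268), and SLC1A3, at 1.04 and 1.56 FPKM at d4, against 6.01 and 8.54 FPKM at d0 (log2 change −1.84, SE 0.18, adjusted p = 0.0139), fell too. PLA2G3, a secreted phospholipase, had 2.56 and 2.50 FPKM at d4, against 13.6 and 13.2 FPKM at d0 (log2 change −2.03, SE 0.31, adjusted p = 0.0384). RIPOR2, a regulator of cell polarity and migration, had 1.12 and 1.00 FPKM at d4, against 9.25 and 9.06 FPKM at d0 (log2 change −2.30, SE 0.31, adjusted p = 0.0345). USP3, a deubiquitinase, had 0.430 and 0.593 FPKM at d4, against 5.30 and 4.90 FPKM at d0 (log2 change −2.01, SE 0.27, adjusted p = 0.0345). In each of these 8 genes both d4 values lay far below both d0 values. The noncoding genes AP000459.2, at 0.271 and 0.390 FPKM at d4, against 3.98 and 6.39 FPKM at d0 (log2 change −2.19, SE 0.22, adjusted p = 0.0139), LINC01844, at 0.0652 and 0.642 FPKM at d4, against 4.45 and 4.68 FPKM at d0 (log2 change −2.07, SE 0.22, adjusted p = 0.0193), and AC003975.1, at 2.64 and 0 FPKM at d4, against 18.5 and 7.60 FPKM at d0 (log2 change −2.76, SE 0.46, adjusted p = 0.0489), fell as well. RAB17, a trafficking GTPase, had 0.534 and 0.597 FPKM at d4, against 7.49 and 7.33 FPKM at d0 (log2 change −2.43, SE 0.47, adjusted p = 0.0726). AK4, a mitochondrial adenylate kinase, had 8.46 and 6.72 FPKM at d4, against 36.2 and 33.1 FPKM at d0 (log2 change −2.06, SE 0.48, adjusted p = 0.121). AC019257.8 had 0.549 and 0.860 FPKM at d4, against 6.83 and 7.12 FPKM at d0 (log2 change −2.23, SE 0.54, adjusted p = 0.138). Those 3 were among the 15 largest shared falls and did not pass.

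Among the largest shared rises outside the lists, MAGEB17, a MAGE family gene on the X chromosome, had 68.8 and 11.5 FPKM at d4, against 0.635 and 0.259 FPKM at d0 (log2 change 4.36, SE 0.70, adjusted p = 0.0445). Its d4 values differed widely between lines and both exceeded d0. ADRA2A, an adrenergic receptor, had 20.9 and 13.5 FPKM at d4, against 0.340 and 1.24 FPKM at d0 (log2 change 3.36, SE 0.35, adjusted p = 0.0172). FAM20A, a secretory pathway pseudokinase, had 18.7 and 14.7 FPKM at d4, against 0.467 and 0.515 FPKM at d0 (log2 change 3.56, SE 0.51, adjusted p = 0.0371). RPRM, a p53 target, had 36.4 and 16.1 FPKM at d4, against 4.42 and 1.88 FPKM at d0 (log2 change 2.68, SE 0.38, adjusted p = 0.0371). ECEL1P1, a pseudogene on chromosome 2, had 27.7 and 40.3 FPKM at d4, against 0.393 and 3.54 FPKM at d0 (log2 change 3.78, SE 0.42, adjusted p = 0.0205), and its neighbour AC068134.2 had 23.5 and 33.7 FPKM at d4, against 0.334 and 2.47 FPKM at d0 (log2 change 3.76, SE 0.51, adjusted p = 0.0336). As ECEL1P1 has close copies, reads could be shared with them. AC012354.3, next to SIX3, had 4.99 and 9.10 FPKM at d4 and was listed at 0 in both libraries at d0 (log2 change 2.96, SE 0.33, adjusted p = 0.0212). AC078993.1, at 101 and 21.2 FPKM at d4, against 1.09 and 1.35 FPKM at d0 (log2 change 4.43, SE 0.76, adjusted p = 0.0527), and PCAT14, a noncoding gene, at 12.8 and 8.15 FPKM at d4, against 0.209 and 0.163 FPKM at d0 (log2 change 3.25, SE 0.79, adjusted p = 0.141), were among the 15 largest shared rises without passing. Further genes were chosen after their values were seen. APELA, a peptide ligand of the apelin receptor made by stem cells, had 59.8 and 54.9 FPKM at d4, against 11.8 and 13.4 FPKM at d0 (log2 change 2.105, SE 0.27, adjusted p = 0.0302). HES3, a bHLH repressor known from mouse neural progenitors, had 24.8 and 45.2 FPKM at d4, against 6.34 and 9.93 FPKM at d0 (log2 change 1.95, SE 0.29, adjusted p = 0.0382). SALL3, a zinc finger factor, had 5.25 and 6.08 FPKM at d4, against 1.16 and 1.66 FPKM at d0 (log2 change 1.47, SE 0.22, adjusted p = 0.0382). PRODH, which degrades proline, had 21.3 and 14.4 FPKM at d4, against 3.14 and 2.92 FPKM at d0 (log2 change 2.20, SE 0.27, adjusted p = 0.0264).

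Of the 129 called genes, 122 had a position in GENCODE v29, and 10 pairs of them lay within 50 kb of each other or overlapped. Both genes rose in 10 of 10 pairs, where 62.0% of all called genes rose. The pairs are not independent. Some overlap and could share reads, such as CYP26A1 with AL358613.3, and ALPG and ECEL1P1 each stand in more than 1 pair. The pairs included LHX5 with LHX5-AS1, IRX2 with C5orf38, SIX3 with AC012354.3 at a distance of 13502 bases, and a run on chromosome 2 from ECEL1P2 through ALPG and ECEL1P1 to AC068134.2. ALPG, an alkaline phosphatase of germ cells, had 3.76 and 2.98 FPKM at d4, against 0.807 and 0.653 FPKM at d0 (log2 change 1.33, SE 0.20, adjusted p = 0.0384), a gene chosen after its values were seen.

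Other metabolic and structural lists are given next. Of 18 glycolysis and hypoxia genes 13 were lower in both lines (35.9% of all genes were), 2 by at least 1 (1.19%). The glycolysis and hypoxia list had 0 calls and a median of −0.48. LDHA, lactate dehydrogenase, was at 29.04 and 38.4 FPKM at d4, against 95.3 and 62.2 FPKM at d0 (log2 change −1.18, SE 0.41, adjusted p = 0.318). SLC2A1, a glucose transporter, was at 32.9 and 32.0 FPKM at d4, against 115 and 71.8 FPKM at d0 (log2 change −1.46, SE 0.52, adjusted p = 0.332). In the amino acid stress list, 12 of 18 were lower in both lines and VLDLR alone fell. YAP and mechanical response genes had 7 of 11 lower in both lines with a median of −0.39, and TEAD1, a partner of YAP, was at 8.68 and 9.12 FPKM at d4, against 14.7 and 15.8 FPKM at d0 (log2 change −0.71, SE 0.20, adjusted p = 0.201). Cell adhesion and basement membrane genes had 6 higher and 10 lower of 19, with 0 calls and a median of −0.08. The adhesion sum was 319 and 308 FPKM at d4, against 302 and 325 FPKM at d0. The share of the adhesion list that was higher lies near the 33.3% of all genes, and 35.9% of all genes were lower.

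Cell cycle genes moved little as a list, with 9 of 20 higher and 4 lower in both lines and a median of 0.16. For this and the following lists, 33.3% of all genes were higher and 35.9% lower in both lines. CCND2, a G1 cyclin, was the 1 that fell, with 3.87 and 6.33 FPKM at d4, against 17.7 and 15.2 FPKM at d0 (log2 change −1.54, SE 0.23, adjusted p = 0.0382). JUN, an immediate early factor, rose, with 10.6 and 9.88 FPKM at d4, against 2.53 and 1.91 FPKM at d0 (log2 change 1.81, SE 0.27, adjusted p = 0.0382), in a list where 4 of 9 were higher and 3 lower. The p53 response list had 8 of 12 higher in both lines and 0 calls, among them TP53I3 at 9.86 and 10.5 FPKM at d4, against 5.36 and 4.37 FPKM at d0 (log2 change 0.94, SE 0.23, adjusted p = 0.151). Of 11 imprinted genes, 5 were higher and 4 lower in both lines, with a median of −0.05. By at least 1 in both lines, 4 were higher (2.05% of all genes). DLK1, IGF2 and H19 were the 3 expressed only through their d4 values and had to be higher there. DLK1, a Notch-related surface protein, rose, with 3.36 and 7.81 FPKM at d4, against 0.226 and 0.136 FPKM at d0 (log2 change 2.39, SE 0.32, adjusted p = 0.0306). IGF2, a growth factor, was at 12.3 and 14.04 FPKM at d4, against 0.431 and 0.192 FPKM at d0 (log2 change 3.44, SE 1.47, adjusted p = 0.420). H19, next to IGF2, was at 24.3 and 7.76 FPKM at d4, against 0.987 and 0.441 FPKM at d0 (log2 change 3.14, SE 1.46, adjusted p = 0.459). Mitochondrially encoded genes had 3 higher and 3 lower of 13 with 0 calls, and DNA methylation enzymes had 4 higher and 1 lower of 9 with 0 calls. DNMT3B, a de novo methyltransferase and stem cell marker, was at 470.1 and 510.3 FPKM at d4, against 237 and 400.3 FPKM at d0. Neural crest genes had 4 higher and 2 lower of 8 and 0 calls. HDAC10, a histone deacetylase named in the series title, was at 2.68 and 2.74 FPKM at d4, against 1.98 and 1.10 FPKM at d0 (log2 change 0.57, SE 0.29, adjusted p = 0.507). SOX1-OT was at 0.0167 and 0.0159 FPKM at d4 and listed at 0 in both libraries at d0.

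Genes higher by at least 1 in both lines differed in composition from those lower. Their longest transcripts had a median GC content of 54.9%, against 46.2% for the genes lower by at least 1 and 48.7% for all 13333. Median lengths were 2494 bases for the higher genes, 3532.5 bases for the lower genes and 3410 bases for all. Protein-coding genes made up 76.9% of the higher genes, 85.5% of the lower genes and 87.1% of all. With a trend over GC content and length removed in each library, 208 genes were higher and 175 lower by at least 1 in both lines. The part of library composition in these counts was not tested beyond that removal.

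Across the stages, several d4 values were peaks or troughs, described here without a test. DUSP6 in V1PAKI was at 83.9 FPKM at d0, 1.05 at d4, 10.4 at d10, 7.67 at d16D and 8.61 at d16V, and in Ctrl at 60.1 FPKM at d0, 1.57 at d4, 9.68 at d10, 4.66 at d16D and 12.3 at d16V. It therefore had its lowest value at d4 in each line. The summed level of the 24 lipid synthesis genes was lowest at d4 in each line too, at 1182 FPKM at d0, 503 at d4, 765 at d10, 748 at d16D and 895 at d16V in V1PAKI and at 1147 FPKM at d0, 490.2 at d4, 766 at d10, 758 at d16D and 1162 at d16V in Ctrl. KLF4 in V1PAKI was at 0.242 FPKM at d0, 8.77 at d4, 1.91 at d10, 0.975 at d16D and 0.795 at d16V, and in Ctrl at 0.293 FPKM at d0, 5.397 at d4, 2.15 at d10, 0.459 at d16D and 0.558 at d16V. CYP26A1 in V1PAKI was at 4.15 FPKM at d0, 33.9 at d4, 16.1 at d10, 9.07 at d16D and 5.54 at d16V, and in Ctrl at 0.822 FPKM at d0, 47.5 at d4, 14.5 at d10, 4.91 at d16D and 7.22 at d16V. KLF4 and CYP26A1 were thus highest at d4 in each line. SPRY4 in V1PAKI was at 41.1 FPKM at d0, 9.86 at d4, 6.16 at d10, 3.90 at d16D and 5.29 at d16V, and in Ctrl at 30.9 FPKM at d0, 7.41 at d4, 7.10 at d10, 1.47 at d16D and 5.96 at d16V, without a return toward d0. LHX5 in V1PAKI was at 0.0295 FPKM at d0, 10.5 at d4, 20.6 at d10, 16.9 at d16D and 24.9 at d16V, and in Ctrl at 0 FPKM at d0, 20.6 at d4, 12.3 at d10, 20.9 at d16D and 20.6 at d16V. LHX5 remained above 10 FPKM in every library from d4 on. APOA1 in V1PAKI was at 0.0543 FPKM at d0, 20.4 at d4, 12.3 at d10, 679 at d16D and 2.93 at d16V, and in Ctrl at 0.0439 FPKM at d0, 13.0 at d4, 115 at d10, 107 at d16D and 63.0 at d16V, so its later values differed widely between libraries.

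**Figure D5:**
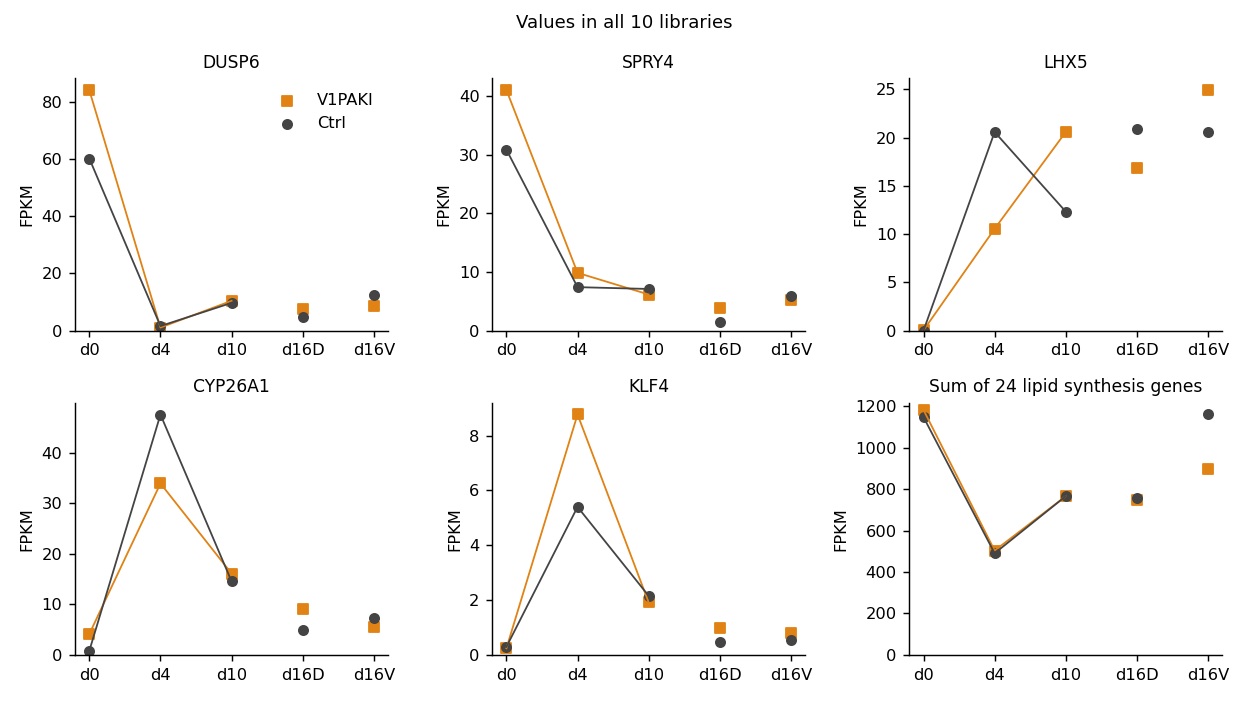
FPKM in all 10 libraries by stage for DUSP6, SPRY4, LHX5, CYP26A1, KLF4 and the sum of 24 lipid synthesis genes, in V1PAKI (squares) and Ctrl (circles), with lines joining d0, d4 and d10. DUSP6 and the lipid sum have their lowest points at d4, and CYP26A1 and KLF4 their highest.

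The expression minimum left some genes just outside. ZNF324B was just inside it, at 1.00 and 1.12 FPKM at d4, against 0.815 and 0.455 FPKM at d0, and HSPA4L was inside it through its d0 values, at 0.799 and 0.435 FPKM at d4, against 1.11 and 1.00 FPKM at d0. GLB1L was just outside, at 0.598 and 0.997 FPKM at d4, against 1.01 and 0.737 FPKM at d0, as was CXCL16, at 1.11 and 0.721 FPKM at d4, against 1.000 and 0.754 FPKM at d0.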

How the data were processed

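RNA of H9 cells, extracted with Trizol, was sequenced after TruSeq library preparation (per the labels' protocols). For 42335 gene symbols in 10 libraries the authors deposited FPKM values. Tools named are cutadapt 1.18, HISAT2 2.1.0 and Cufflinks on GRCh38, per the submitters' processing notes. The annotation, strand setting and filters are not stated. Depth is unknown.

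From these values, log2(FPKM + 1) was computed with a pseudocount of 1. The 15779 genes at 1 FPKM or more in 2 or more of 10 libraries were fitted with limma 3.58.1 in R 4.3.3 (lmFit, eBayes with trend), with stage and line as terms, 4 residual degrees of freedom and 7.77 after moderation. The contrast was d4 minus d0, two-sided, with Benjamini-Hochberg adjustment over all genes tested. The line, which is the cell line a library came from, is the block that pairs d4 with d0. The fit was tested on simulated data.

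The genes and the 33 lists (552 genes, 551 in the table, 382 above the expression minimum) were chosen with earlier results of these data known. No test of a list was made. Named were the 15 rising and 15 falling calls and the 15 higher and 15 lower genes of all with the largest smaller change of both lines, list genes, and up to 5 genes per orientation that moved oppositely by at least 1. Others are marked as chosen after their values were seen. Some list genes are not reported here. GENCODE v29 gave positions, and GC content and length for 15536 of 15779 genes (98.5%). RefSeq promoters (GRCh38.p14) covered 9518 of the 13333 genes. Alternatives were another pseudocount, filters, TPM, median-of-ratios scaling, removal of a GC and length trend, fits on fewer libraries, no intensity trend, no replicate block and leaving out each of the 4 d0 and d4 libraries in turn.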

Additional observations from a re-analysis of the deposited data

Results flagged for a closer look

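In 10 genes named by rule the lines moved by at least 1 on the log2 scale in opposite directions between d0 and d4. With 1 library per line and stage, the difference between the lines was not tested, and it is given as the V1PAKI change minus the Ctrl change.

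NNAT, an imprinted gene of the nervous system, had 10.2 and 26.4 FPKM at d4, against 27.7 and 10.4 FPKM at d0, a difference of −2.61. TMEM189-UBE2V1, a read-through gene, had 0 and 17.0 FPKM at d4, against 43.5 and 5.58 FPKM at d0, a difference of −6.93. The read-through gene ARPIN-AP3S2 had 0 and 4.91 FPKM at d4, against 1.185 and 0 FPKM at d0, a difference of −3.69, and CHURC1-FNTB had 0.0394 and 3.12 FPKM at d4, against 1.61 and 0.898 FPKM at d0, a difference of −2.44. AC023055.1 had 0.177 and 8.87 FPKM at d4, against 6.96 and 0.215 FPKM at d0, a difference of −5.78. A value of 0 for a read-through gene can be a failed estimate.

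In the opposite orientation, AL713999.1 had 3.93 and 0 FPKM at d4, against 0 and 2.57 FPKM at d0, a difference of 4.14, and AC008982.1 had 4.98 and 0.0746 FPKM at d4, against 0.132 and 2.25 FPKM at d0, a difference of 4.00. FAM220A had 2.26 and 0.158 FPKM at d4, against 0.259 and 2.37 FPKM at d0, a difference of 2.91, AC012254.2 had 1.79 and 0.118 FPKM at d4, against 6.28e-07 and 1.74 FPKM at d0, a difference of 2.77, and AL022238.4 had 5.63 and 7.07 FPKM at d4, against 1.97 and 17.3 FPKM at d0, a difference of 2.34. The direction of all 10 differences was kept under each scaling, pseudocount and filter tried in which the gene was measured.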

How the results depend on the processing

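Counts of calls depended on the fit more than directions did. Against 80 genes that rose and 49 that fell, TPM gave 52 and 27, a filter at 5 FPKM 37 and 16, no filter 4 and 7, the fit on the 6 d0, d4 and d10 libraries 0 and 1, and the paired fit on the 4 d0 and d4 libraries 0 and 0 (3006 genes at an unadjusted p under 0.05, against 1792 in the fit of 10). Without the line, that is with no replicate block, 137 rose and 100 fell, and the block changed the call of 18 of the genes whose change is reported. Removing the GC and length trend gave 115 genes that fell, and a pseudocount of 0.1 gave 27. Leaving out each of the 4 d0 and d4 libraries in turn gave 0 to 1 genes that rose and 0 to 1 that fell, with 702 to 1871 genes at an unadjusted p under 0.05. Without 1 library a stage is left with a single sample that is assumed to vary like the others. Genes at least 1 higher in both lines numbered 158 with a filter at 5 FPKM and 440 with a pseudocount of 0.1, against 273, and genes at least 1 lower numbered 333 with TPM and 365 with a pseudocount of 0.1, against 159. The cause of these shifts was not tested.

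Among the genes whose change is reported, none of the mean changes given with a standard error turned sign in any of the alternatives run. List medians turned sign for retinoic acid (0.03, or −0.02 without the GC and length trend), imprinted genes (−0.05, or 0.01 without that trend), primitive streak (0.27, or −0.35 with a filter at 5 FPKM), immediate early genes (−0.05, or 0.69 with that filter and 0.02 with none) and, with no filter, neural progenitor (−0.13, or 0.07) and endothelium and blood (−0.24, or 0.01). Unknown depth limits all values near 0, and 1 library per line and stage limits every p-value.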
